A study of Arabidopsis thaliana with 47 samples.

Results

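In nitrogen-treated root cells with protein synthesis blocked, a drug that lets the fused transcription factor bZIP1 enter the nucleus raised 301 and lowered 171 of 22746 probe sets. The arrays do not measure the entry itself. The comparison holds 12 of the 47 Affymetrix ATH1 arrays of the series, and it was made up by sample title. There were 6 arrays of cells given the drug, dexamethasone (DEX), and 6 of cells without it, with nitrogen and cycloheximide (CHX) in both groups. All probe sets but the AFFX controls were tested.

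Protoplasts, which are cells freed of their walls, were made from roots of Arabidopsis thaliana Col-0 seedlings aged 10 days by 4 h of enzyme digestion. They were transfected for 25 min with the plasmid pBeaconRFP_GR::bZIP1 and kept overnight. The plasmid carries bZIP1 fused to a glucocorticoid receptor domain (GR) behind the 35S promoter, a strong viral promoter that is active in most plant cells. The fusion protein was therefore overexpressed, and the labels name no mutation of the cells' own bZIP1. Both groups were given 20 mM KNO3 with 20 mM NH4NO3 for 2 h and then CHX, whose dose is not given in the sources used here. The +DEX group then got 10 µM DEX in ethanol, and the -DEX group got ethanol alone. Cells positive for the red fluorescent protein of the plasmid were selected before RNA extraction, and the RNA was amplified before labelling. Each group has 3 treatment replicates from each of 2 preparations, called Biorep 1 and Biorep 2 in the titles. Nothing says that the treatment replicates of a Biorep were separate cultures, so the p-values may measure a spread that is technical.

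bZIP1 belongs to the S1 group of plant basic leucine zipper factors, which bind DNA as dimers, often with factors of group C. It is known for its part in the response of plants to low sugar and energy, which includes the breakdown of amino acids, and for a part in nitrogen signalling. A GR fusion is held in the cytoplasm until DEX releases it. CHX blocks translation, so a transcript that changes after DEX in its presence does so without newly made proteins. The comparison thus asks which transcripts respond to nuclear bZIP1 itself in cells that have received a nitrogen signal.

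Values are log2 GCRMA levels, and an effect is the DEX mean minus the mean without DEX on that scale. The lowest value, 2.298, is a floor shared by all 12 arrays. A probe set can also have a background level of its own above the floor, seen as a value repeated exactly between arrays, and 436 of the 9413 probe sets with a mean level over 4 had such values on more than 2 arrays of a group. On each array, 34.1% to 36.4% of the probe sets were at this floor, and 4827 were so on all 12 arrays. The median level was 2.92 to 2.98. Arrays of the same group correlated at 0.991 to 0.996 within a Biorep and at 0.98 to 0.987 between Bioreps, across probe sets. In a principal component analysis of the 12 arrays, the axis with 45.0% of the variance separated the Bioreps and the next, with 15.8%, separated the DEX groups, so Biorep was a covariate in the test. Of 30 marker genes listed for root cell types and for leaf, 3 had a named probe set. EXPA7, a root hair expansin, lay at the floor on 4 of the 6 arrays of either group and reached 3.06 at most. AT1G62500, listed for the cortex, was at the floor on all 12 arrays, and RCA, the leaf protein Rubisco activase, had means of 2.61 without DEX and 2.74 with it. No named marker thus bears out or contradicts the labelled root origin. No probe set could be matched to bZIP1, and its own level is not analysed here.

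In all, 472 probe sets passed an adjusted p of 0.05, which is 2.08% of those tested. The 301 that rose are 1.32% and the 171 that fell are 0.752% of those tested. Among the 9413 probe sets with a mean over 4, the shares were 3.1% and 1.8%. The balance of rises and falls depended on the setting, with 130 and 37 without the Biorep covariate, 389 and 292 with all 24 arrays of bZIP1 cells with CHX in the fit, and 399 and 327 when only probe sets with a mean over 4 were tested. The rises were the larger changes: 114 of them reached 2-fold and 14 reached 4-fold, against 16 and 1 of the falls. The selected cells are a mixture, so a change in RNA per cell and a change in the share of a cell type cannot be told apart. The median rise was 0.83 and the median fall was -0.60 (log2). The 6 arrays with DEX and the 6 without did not overlap for 172 of the 301 rises and 55 of the 171 falls. Over all probe sets tested, called or not, they did not overlap for 295. The calls were made on these same arrays, so separation of the groups is partly built in. Within each Biorep, where 3 arrays face 3, the groups did not overlap for 289 rises and 165 falls. The matching count over all probe sets was not made, so these 2 counts have no background to be read against. All 301 rises and all 171 falls had the same sign in both Bioreps, which a call across both Bioreps largely brings about by itself. A probe set named here is one that the tables match to a single gene, which holds for 137 of the rises and 82 of the falls. With treatment replicates averaged into their Biorep first, which leaves 2 values a group, no probe set passed, and 2231 had an unadjusted p under 0.05 in limma.

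**Figure D1:**
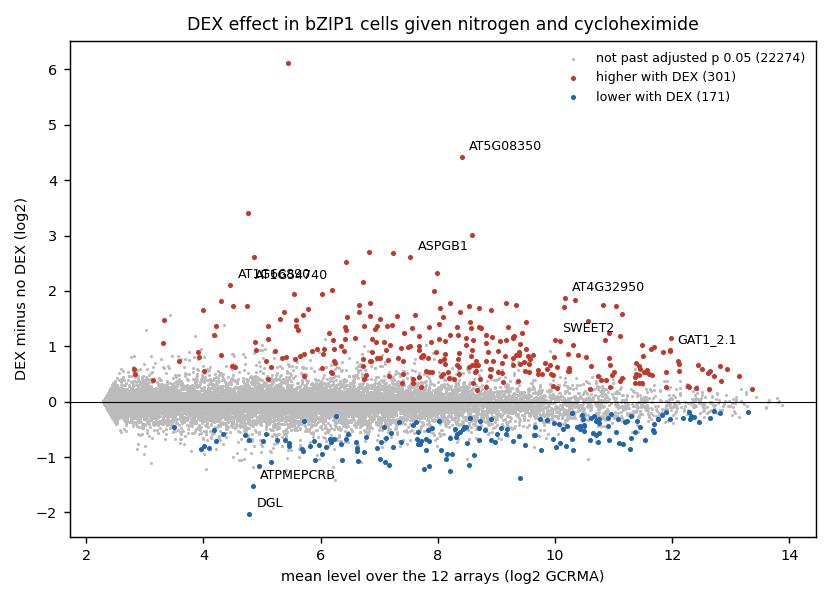
The DEX effect (log2, vertical axis) of every probe set against its mean level over the 12 arrays (log2 GCRMA, horizontal axis). Red points are the 301 probe sets higher with DEX, blue points the 171 lower with DEX and grey points those past no threshold. The red points reach further from 0 than the blue ones.

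The largest rise among named genes was that of AT5G08350. Without DEX its level was 5.12 at the lowest, 6.36 at the median and 6.94 at the highest, and with DEX it was 9.84, 10.52 and 11.57. The effect was 4.41 ± 0.21 (log2 ± SE, n = 6 and 6; limma adjusted p = 2.54e-05), or 21.3-fold, and every array with DEX lay far above every array without. A probe set without a gene name rose further: its levels went from 2.30, 2.31 and 2.76 (lowest, median and highest) to 7.36, 8.49 and 9.62. Its name is of the kind that the array's makers give to probe sets that can pick up several transcripts.

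Genes of amino acid breakdown were among the rises. Of 15 measured members of a list of such genes, 5 rose, none fell and 10 did not pass. The share that rose was 33.3%, against 1.32% of all probe sets and 3.1% of those with a mean over 4. This list and those below were chosen with earlier results of these data known, so their shares are no test of a pathway. All 15 had a mean level of at least 3. The list's median effect was 0.327, against 0 over all probe sets tested and -0.027 over those with a mean over 4. The members that rose act on asparagine, methionine, valine and leucine, apart from AT5G38710, which the tables do not describe.

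ASPGB1, an asparaginase that releases ammonium from asparagine, had levels of 5.83, 6.24 and 6.61 without DEX and 7.33, 8.78 and 10.34 with it (lowest, median and highest of 6). Without DEX, 3 arrays of Biorep 1 shared 1 value exactly and 2 arrays of Biorep 2 shared another, so these levels may be a background of the probe set and not a level of the transcript. The rise is then only bounded, at 6.12-fold or more (adjusted p = 0.00135), and no array with DEX overlapped one without. With DEX, all 3 arrays of Biorep 1 lay above all 3 of Biorep 2. Of the 40 named rises and falls, ASPGB1 was the 1 with repeated values on more than 2 arrays of a group. AT5G38710 had levels of 7.12 to 8.26 without DEX (median 7.49) and of 8.46 to 10.01 with it (median 9.30). Its rise of 1.63 ± 0.15 (adjusted p = 0.000598) left the groups apart.

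MGL, methionine gamma-lyase, which splits methionine, was measured with little spread. Its levels were 10.70, 11.02 and 11.39 without DEX and 11.47, 11.74 and 11.96 with it, so the 6 upper arrays were the 6 with DEX. The rise was 0.70 ± 0.04 (adjusted p = 3.5e-05). ALDH6B2, an aldehyde dehydrogenase of valine breakdown, went from a median of 8.39 (7.98 to 8.44) to one of 8.95 (8.67 to 9.27) and rose by 0.66 ± 0.08 (adjusted p = 0.00201). MCCA, a subunit of the carboxylase that breaks down leucine, went from a median of 10.47 (10.43 to 10.63) to one of 11.04 (10.69 to 11.13) and rose by 0.46 ± 0.06 (adjusted p = 0.0031). Neither gene's groups overlapped.

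The other subunit of that carboxylase, MCCB, had an effect of 0.33 ± 0.14 (adjusted p = 0.519). AT4G33150, the enzyme of lysine breakdown with lysine-ketoglutarate reductase and saccharopine dehydrogenase activity, had an effect of 0.59 ± 0.15 (adjusted p = 0.104). ASPGA1, the other measured asparaginase, had an effect of -0.28 ± 0.15 (adjusted p = 0.687). The listed genes of this pathway therefore did not all pass, and the effects of the 10 others ranged from -0.28 to 0.59.

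**Figure D2:**
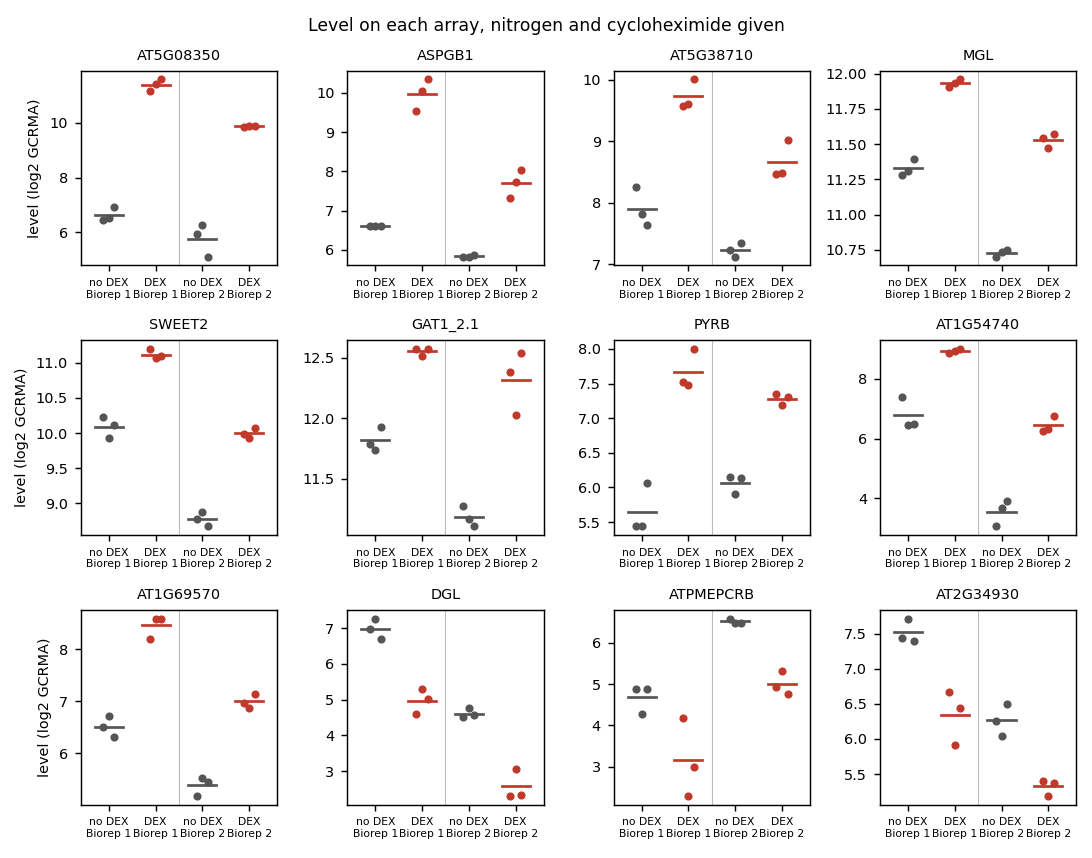
Levels (log2 GCRMA) of 12 genes on each of the 12 arrays, with grey points for no DEX, red points for DEX and lines at the mean of 3 arrays, by Biorep. For all 12 genes the 3 arrays with DEX stand apart from the 3 without within each Biorep. For SWEET2, AT1G54740, DGL, ATPMEPCRB and AT2G34930 the offset between Bioreps makes the groups of 6 overlap.

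Other genes of nitrogen-containing compounds rose as well. PYRB, aspartate transcarbamoylase, an early step of pyrimidine synthesis, had levels of 5.44, 5.98 and 6.15 without DEX and 7.18, 7.41 and 8.0 with it. It rose by 1.62 ± 0.18 (adjusted p = 0.00165), with no overlap. GAT1_2.1, a glutamine amidotransferase-like gene that is known to respond to nitrogen, had levels of 11.11, 11.51 and 11.93 without DEX and 12.02, 12.53 and 12.57 with it. Its rise was 0.93 ± 0.10 (adjusted p = 0.00131), and a second probe set of the gene rose by 1.70 ± 0.21 (adjusted p = 0.00287). The other 3 measured members of the nitrate response list, AT3G25790, AT1G68670 and AT1G25550, had effects of -0.15, 0.07 and 0.01 and did not pass. AT3G25790 had a mean under 3, close to the floor. The single call among 4 genes is 25%, against 1.32% of all probe sets and 3.1% of those with a mean over 4, and says little.

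Transport and sugar genes gave 1 clear rise. SWEET2, a sugar transporter of the vacuole membrane in roots, had levels of 8.68, 9.41 and 10.23 without DEX and 9.93, 10.57 and 11.19 with it. The Bioreps are offset, so the groups of 6 overlap, but within each Biorep they do not. SWEET2 rose by 1.12 ± 0.06 (adjusted p = 3.5e-05), while the other 13 measured SWEET genes did not pass, with effects from -0.68 to 0.31. Of the 14, 9 had a mean under 3. The share that rose was 7.14%, against 1.32% of all probe sets and 3.1% of those with a mean over 4. AT2G41190 rose by 1.74 ± 0.27 (adjusted p = 0.00879) from a median of 3.84 (3.37 to 4.56) to one of 5.69 (4.12 to 6.73).

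Among markers of energy starvation, 1 of 8 measured genes rose, or 12.5%, and none fell. The gene was AT3G15630, which went from a median of 9.66 (9.17 to 10.40) to one of 10.21 (9.73 to 10.74), an effect of 0.49 ± 0.07 (adjusted p = 0.00634). The list's median was 0.278, and 7 of its 8 members had effects above 0. PPDK, pyruvate orthophosphate dikinase, had an effect of 0.77 ± 0.19 (adjusted p = 0.0884) and AT1G18460 one of 0.62 ± 0.15 (adjusted p = 0.0792). None of 9 measured autophagy genes passed, and their effects lay between -0.22 and 0.18.

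Some genes of auxin action rose, and most did not pass. Of 12 measured, 3 rose, or 25% against 1.32% of all probe sets and 3.1% of those with a mean over 4, and none fell. The list's median was 0.002, and 4 of the 12 had a mean under 3. IAA34, a member of the Aux/IAA repressors of auxin response, had levels of 3.81, 4.56 and 5.20 without DEX and 4.72, 6.06 and 7.18 with it. It rose by 1.49 ± 0.19 (adjusted p = 0.00311), with groups that overlap across Bioreps and not within them. IAA34 and GAT1_2.1 are neighbouring loci, AT1G15050 and AT1G15040. GH3.17, which joins auxin to amino acids and so inactivates it, rose by 0.85 ± 0.11 (adjusted p = 0.00337) from a median of 8.94 (8.24 to 9.51) to one of 9.75 (9.40 to 10.09). GH3.3, of the same enzyme family, rose by 0.26 ± 0.05 (adjusted p = 0.0288), and its arrays did not overlap (11.63 to 11.89 without DEX, 11.93 to 12.13 with it). IAA29 had an effect of -1.11 ± 0.47 (adjusted p = 0.493).

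Among the expansins, proteins that loosen cell walls, 2 of 18 measured genes rose, or 11.1%, and none fell, and 10 of the 18 had a mean under 3. Both belong to the expansin-like A group. EXLA3 had levels of 11.13, 11.48 and 11.92 without DEX and 12.35, 12.44 and 12.51 with it, a rise of 0.92 ± 0.10 (adjusted p = 0.00127). EXLA1 rose by 0.66 ± 0.08 (adjusted p = 0.00266), and EXLA2 had an effect of 0.46 ± 0.19 (adjusted p = 0.451). The list's median was 0.002.

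Genes that attach sugars to small molecules rose in 2 cases of 47, and 22 of the 47 had a mean under 3. Their share of 4.26% stands against 1.32% of all probe sets and 3.1% of those with a mean over 4, and 2 calls say little. UGT76B1, a glucosyltransferase known from plant defence, had levels of 5.99, 6.53 and 7.04 without DEX and 7.68, 7.91 and 8.12 with it, a rise of 1.38 ± 0.18 (adjusted p = 0.00371). UGT73D1 rose by 0.42 ± 0.08 (adjusted p = 0.0193). The median of the 47 was 0.001. In other enzyme families, 1 of 8 aldehyde dehydrogenases rose (12.5%, against the same 2 shares), which is ALDH6B2 again. None of 14 glutathione transferases, 20 beta-glucosidases or 29 serine carboxypeptidase-like genes passed, but 7, 9 and 25 of these had a mean under 3, where the floor leaves little room for a fall.

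The remaining named rises, by size, include few genes that the tables describe. AT1G54740 rose by 2.52 ± 0.23 (adjusted p = 0.000564), from 3.07, 5.19 and 7.40 to 6.25, 7.81 and 8.99 (lowest, median and highest). AT1G66890 rose by 2.11 ± 0.17 (adjusted p = 0.000272), from 3.02, 3.51 and 3.62 to 5.22, 5.46 and 6.02. AT4G32950 rose by 1.87 ± 0.18 (adjusted p = 0.000724), from 8.61, 9.30 and 9.69 to 10.34, 11.13 and 11.74. The groups of 6 overlap for AT1G54740 alone of these, and there within neither Biorep. AT1G69570 rose by 1.78 ± 0.11 and AT1G67480 by 1.75 ± 0.14. MAP1C, a methionine aminopeptidase that trims the first residue of new proteins, rose by 1.55 ± 0.15, from a median of 6.13 (5.71 to 6.34) to one of 7.77 (7.09 to 7.84). NANA, an aspartic protease of the chloroplast, rose by 1.49 ± 0.12, from a median of 6.27 (5.96 to 6.56) to one of 7.76 (7.52 to 8.02). AT3G54120, AT4G18340, AT3G54630, AT2G24130, AT1G10090, AT5G58750 and AT3G46700 complete the 20 largest named rises, with effects between 1.53 and 1.72. For AT1G10090 a second probe set gave 0.16 ± 0.12 (adjusted p = 0.851), so the probe sets of this gene disagree. Over the 20 genes, the groups of 6 did not overlap for 17, and the largest adjusted p was 0.0174.

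The falls were smaller and rested more on the comparison within Bioreps. DGL, a lipase that acts on membrane lipids, had levels of 4.50, 5.74 and 7.27 without DEX and 2.31, 3.83 and 5.29 with it. Its effect was -2.03 ± 0.17 (adjusted p = 0.000368), which makes the level without DEX 4.08-fold higher. The groups of 6 overlap, but the effect was -2.02 in Biorep 1 and -2.04 in Biorep 2. Since some arrays with DEX lie close to the floor, the effect is measured there only down to it.

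ATPMEPCRB, a pectin methylesterase, which modifies wall pectin, had levels of 4.28, 5.69 and 6.59 without DEX and 2.30, 4.47 and 5.32 with it. It fell by 1.52 on the log2 scale (SE 0.28, adjusted p = 0.024), and the effect was -1.52 in either Biorep. Of 11 measured genes of wall xyloglucan and pectin, a list that does not hold ATPMEPCRB, 2 fell, or 18.2%, and none rose. Of all probe sets 0.752% fell, and of those with a mean over 4 it was 1.8%. Of the 11, 8 had a mean under 3. XTH19 and XTH18, enzymes that cut and rejoin xyloglucan, fell by 0.69 and 0.21 (adjusted p = 0.00155 and 0.00328). XTH19 levels overlap across Bioreps (10.41 to 11.43 without DEX, 9.70 to 10.78 with it) and XTH18 levels do not (12.81 to 12.99 and 12.65 to 12.77). The median of the 11 was -0.002.

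Further falls were those of AT4G39320, AT5G07870, AT2G34930 and AT1G53440, with effects of -1.15, -1.08, -1.06 and -1.05. AT2G27830 and AT5G22530 both had -1.04. AT1G53440 went from 6.16, 6.37 and 6.93 to 4.84, 5.40 and 5.78, without overlap, and AT2G34930 from 6.05, 6.95 and 7.71 to 5.19, 5.66 and 6.66, with overlap between Bioreps. Of 24 measured genes of cytochrome P450 oxygenases, 19 had a mean under 3. CYP71B5 was the 1 to pass, or 4.17% against falls in 0.752% of all probe sets and 1.8% of those with a mean over 4. It had an effect of -0.81 ± 0.12 (adjusted p = 0.00645), from a median of 6.31 (5.44 to 6.95) to one of 5.29 (4.82 to 6.12). AT2G42360, AT5G28630, AT3G08750, AT1G14550, AT5G46710, AT3G61390, AT1G05060, AT2G41890, AT2G32220, AT5G52670 and AT3G14360 complete the 20 largest named falls, with effects between -0.89 and -0.76. The groups of 6 did not overlap for 5 of the 20. Within each Biorep they did not overlap for all 20, which also held for 165 of the 171 falls called.

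Of regulators, WRKY47, a WRKY transcription factor, fell by 0.70 (SE 0.14, adjusted p = 0.0341), the 1 call among 6 measured WRKY genes (16.7%). CML37, a calmodulin-like calcium sensor, fell by 0.18 (SE 0.03, adjusted p = 0.00654), the 1 call among 7 (14.3%). A single call in a list this short says little against the 1.8% of probe sets with a mean over 4 that fell. None of 14 measured bZIP genes passed, of which 8 had a mean under 3. These include the bZIP1 relatives bZIP44, with an effect of -0.51 ± 0.25 (adjusted p = 0.639), and BZIP53, with -0.21 ± 0.05 (adjusted p = 0.0854). None of 15 plastid ribosomal protein genes or 3 pentose phosphate genes passed. All 7 measured glutamate receptor-like genes had a mean under 3, where the floor leaves little room for a fall too.

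**Figure D3:**
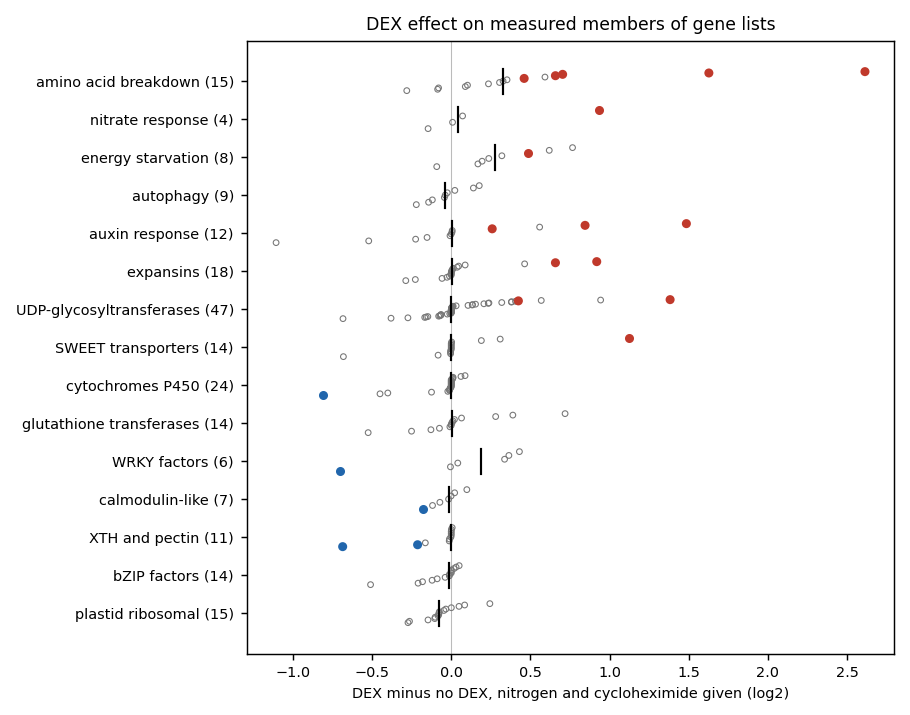
DEX effects (log2) of the measured members of 15 gene lists, 1 point a gene and the number of genes in brackets. Filled points passed the adjusted threshold (red higher, blue lower), open points did not, and the black bars are list medians. Amino acid breakdown holds 5 filled points, all to the right of 0, and most other lists cluster at 0, where many members lie near the floor.

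The sizes of the called effects differed somewhat between the Bioreps. The median effect over the 301 rises was 0.85 in Biorep 1 and 0.75 in Biorep 2, and 201 of them were larger in Biorep 1. For the 171 falls the medians were -0.59 and -0.55. The test of the difference between the Bioreps called 0% of the probe sets, with 605 at an unadjusted p under 0.05 in limma. Among named rises, 16 of 20 were larger in Biorep 1, with IAA34 (1.96 and 1.01) among the more unequal ones, while AT1G54740 was larger in Biorep 2 (2.15 and 2.88).

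Nitrogen made no difference that passed for any probe set. The difference between the DEX effects with and without nitrogen was tested over the 24 arrays of bZIP1 cells with CHX, and it called 0% of the probe sets, with 554 at an unadjusted p under 0.05 in limma. Without nitrogen, cells had 20 mM KCl in place of the nitrogen salts, and DEX changed 2.5% of the probe sets: 398 rose (1.75%) and 170 fell (0.747%). These arrays are not the ones above but come from Bioreps of the same numbers. Of the 301 rises with nitrogen, 300 had the same sign without it, where 47.0% of 9413 probe sets with a mean level over 4 lay above 0. Of these, 241 were also called without nitrogen, which is 80.1% of the rises with nitrogen and 60.6% of those without. Of the 171 falls, 169 had the same sign and 72 were called, which is 42.1% of the falls with nitrogen and 42.4% of those without.

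The sizes leaned towards smaller rises with nitrogen. To choose probe sets without favouring either condition, the effect averaged over nitrogen was used, by which 725 probe sets rose (3.19%) and 676 fell (2.97%). Among the 725, 75.4% had the smaller effect with nitrogen, against 56.0% of the 9413 probe sets with a mean over 4. The median effect was 0.52 with nitrogen and 0.64 without, and the median difference was -0.111, against -0.027 for the 9413. Among the 137 that rose at least 2-fold, 82.5% had the smaller effect with nitrogen, with medians of 1.32 and 1.49. The share was 73% in Biorep 1 and 79.6% in Biorep 2 for these 137, and 67.7% and 69% for the 725. When all arrays were quantile normalized again, the shares were 80.3% for the 137, 68.1% for the 725 and 50.9% for the 9413. Genes are not independent of each other, so no test was made of these shares. For the 137, the median level with nitrogen minus that without was 0.045 in cells without DEX and -0.177 in cells with it. The 676 falls had medians of -0.443 with nitrogen and -0.418 without. Of these falls, 61.5% had a difference below 0, which is a lower value with nitrogen, and 55.6% did when quantile normalized again. Differences below 0 were thus the more common ones in the rises, in the falls and in the 9413, so part of the lean is shared by all 3.

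Values of single genes show the same lean but none passed. IAA34 had an effect of 1.49 with nitrogen and 2.28 without, a difference of -0.80 ± 0.28 (unadjusted p = 0.00959, adjusted p = 1). SWEET2 had 1.12 and 1.43, and MGL 0.70 and 0.91. Of the 20 named rises, 18 were smaller with nitrogen, and all 20 also passed without it. Of the 20 named falls, 16 were deeper with nitrogen, and 10 passed without it. The named genes were chosen by their size with nitrogen, which favours that condition.

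**Figure D4:**
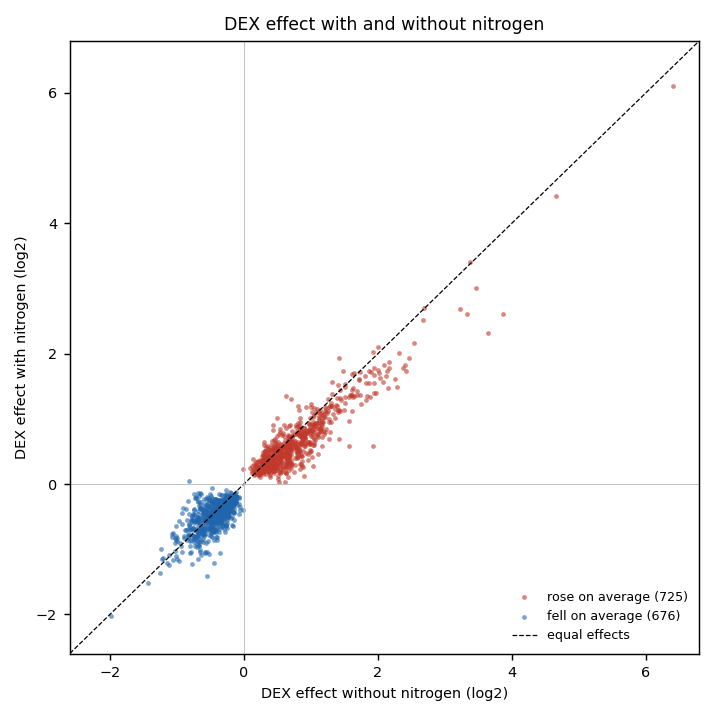
DEX effect with nitrogen (log2, vertical axis) against DEX effect without it (log2, horizontal axis) for the 725 probe sets that rose (red) and the 676 that fell (blue) on average over nitrogen. The dashed line marks equal effects. Most red points lie close to the line, and 75.4% of them lie below it.

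Without CHX, the DEX effect in bZIP1 cells with nitrogen rests on 3 arrays a group, with solvent in place of CHX. There, 22 probe sets rose (0.0967%) and 14 fell (0.0615%). Of the 301 rises, 253 had the same sign without CHX, a share of 84.1%, against 51.7% of the probe sets with a mean over 4, and their median effect was 0.39. Of the 301, 13 were also called. Of the 171 falls, 114 had the same sign, none was called, and the median effect was -0.058. The difference between the effects with and without CHX was called for 0.87% of the probe sets, 118 higher and 80 lower with CHX. This balance is not stable: it was 120 and 193 with treatment replicates averaged, 30 and 30 without replicate 2 and 22 and 31 without replicate 3. This difference uses the 12 arrays above, and CHX cannot be told apart from preparation, because the titles name Bioreps only for bZIP1 cells with CHX.

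Among the 20 named rises, 6 were larger with CHX and none smaller by this test. AT3G54120 rose by 1.72 ± 0.16 with CHX and had an effect of -0.04 without it, a difference of 1.77 ± 0.23 (adjusted p = 0.00295). PYRB had 1.62 and 0.20, a difference of 1.42 ± 0.27 (adjusted p = 0.0281). AT5G08350 passed in both, with 4.41 and 3.13, and so did AT2G41190, with 1.74 and 2.76. DGL had levels of 2.30 to 2.31 on all 6 arrays without CHX, so no fall could be measured there, and its difference of -2.02 ± 0.25 (adjusted p = 0.00171) is set by that floor.

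A few genes had larger DEX effects without CHX. GH3.3 rose by only 0.26 with CHX, where its levels were 11.63 to 12.13, and its effect without CHX was 2.35 ± 0.30 (5.61, 5.74 and 6.09 without DEX, 7.61, 8.37 and 8.50 with it; adjusted p = 0.121). The difference was -2.09 ± 0.22 (adjusted p = 0.000546). EXLA3 behaved alike, with 0.92 and 2.43 and a difference of -1.51 ± 0.21 (adjusted p = 0.00437). Its levels with CHX were 11.13 to 12.51. Both genes thus had high levels with CHX, and whether this left less room for a rise was not tested. AT2G34670 had -0.05 with CHX and rose by 1.92 ± 0.11 without it. In the other direction, AT4G02090 had 0.21 with CHX and fell by 1.69 without it (adjusted p = 0.0452), a difference of 1.90 ± 0.15 (adjusted p = 4.98e-05). AT5G65530, AT1G22885 and UGT73C7 had differences of 2.46, 1.94 and 1.81. Of these 3, AT1G22885 passed with CHX, with a rise of 1.17 ± 0.20 (adjusted p = 0.0174).

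Cells with the empty vector show what DEX did without the fusion protein, with nitrogen and CHX given and 3 arrays a group. DEX changed 8 probe sets there, 0.0352% of those tested, 6 up and 2 down, and none of the 8 was called in bZIP1 cells. Of the 301 rises, 136 had the same sign in these cells, a share of 45.2%, and their median effect was -0.021. Probe sets with a mean over 4 lay above 0 in 48.3% of cases. Of the 171 falls, 117 had the same sign, a share of 68.4% against 51.5% of the probe sets with a mean over 4 that lay below 0, and their median effect was -0.082.

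The difference in DEX effect between bZIP1 and empty vector cells was called for 1.06% of the probe sets, 156 higher and 86 lower in bZIP1 cells, and 41 and 44 without replicate 3. It uses the 12 arrays above as well, and vector cannot be told apart from preparation. Of the 301 rises, 137 were called higher in bZIP1 cells by this test, against 0.686% of all probe sets. Of the 171 falls, 22 were called lower, against 0.378% of all probe sets. Most of the falls were thus not told apart from the DEX effect in empty vector cells. Among the 20 named rises, 15 differed in this test. AT5G08350 had an effect of 0.10 in empty vector cells, a difference of 4.32 ± 0.39 (adjusted p = 0.000108), and its levels there were 5.92 to 6.39 without DEX and 5.69 to 6.86 with it. ASPGB1 also differed (adjusted p = 0.00617), with levels without DEX that may be background. MGL had -0.18, AT5G38710 -0.21 and GAT1_2.1 -0.08, and all 3 differed. PYRB had -0.93 (adjusted p = 0.57), which adds to its difference of 2.55 ± 0.30. AT1G66890, AT2G41190, AT4G18340, AT3G54630 and AT5G58750 did not pass the test of the difference. Of the 20 named falls, 6 differed: DGL, AT2G27830, AT5G22530, AT5G28630, AT5G46710 and CYP71B5.

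The 4 named genes with the most negative differences had their larger effects in empty vector cells. AT1G76640, also named CML39, had an effect of 2.75 ± 0.23 in empty vector cells (adjusted p = 0.127) and -0.57 in bZIP1 cells. AT2G47950 and AT2G47960 rose by 3.20 and 2.61 in empty vector cells (adjusted p = 0.0173 for both) and had 0.21 and 0.30 in bZIP1 cells. AT1G21550 had 2.18 and -0.50.

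**Figure D5:**
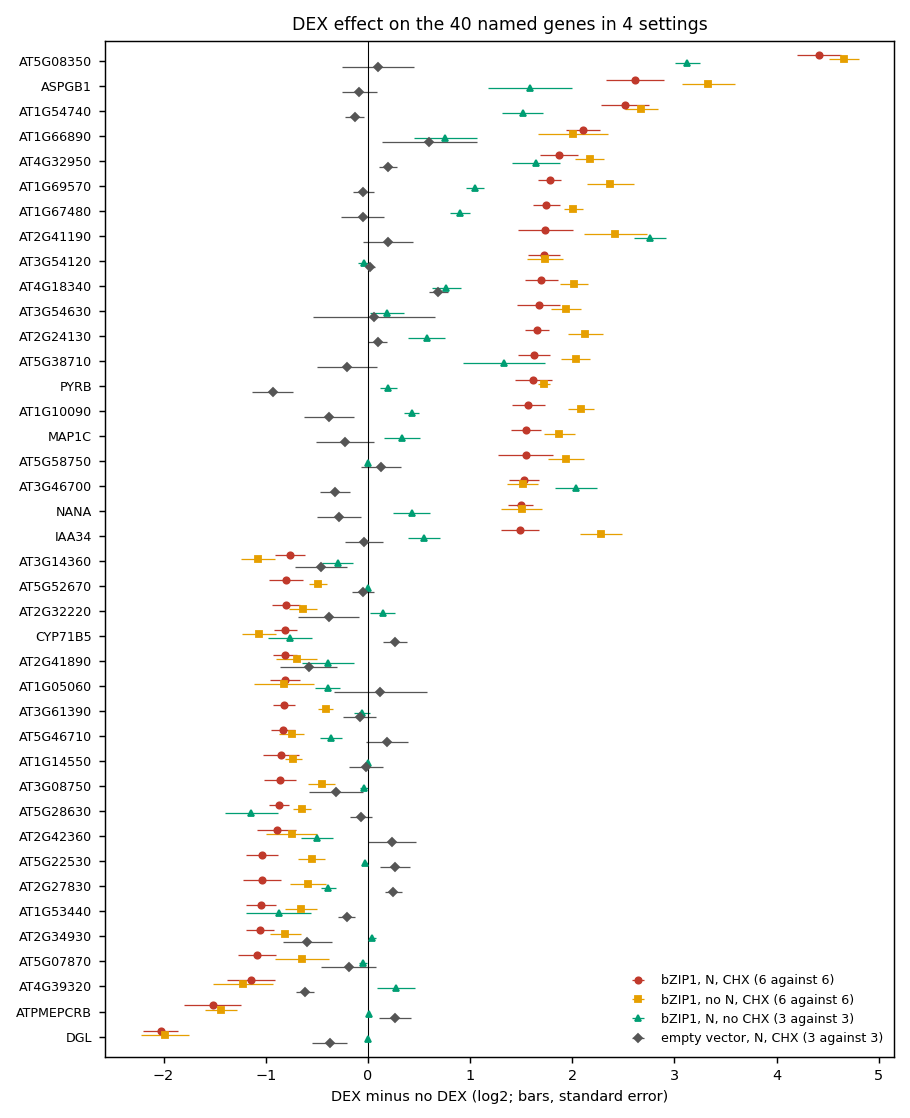
DEX effects (log2) on the 20 largest named rises and 20 largest named falls, with bars of 1 standard error. Red circles are bZIP1 cells with nitrogen and CHX, orange squares without nitrogen, green triangles without CHX and grey diamonds the empty vector. Red and orange lie on the same side of 0 for all 40 genes, and the grey diamonds run from -0.93 to 0.69.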

How the data were processed

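The deposited values are log2 levels of 22810 ATH1 probe sets, which the authors made with GCRMA per the submitters' processing notes, with no version given. The lowest value differed between arms (2.298 in bZIP1 cells with CHX, 2.303 without CHX, 2.287 with the empty vector), so levels of different arms are not on 1 scale. After 64 AFFX controls were left out, 22746 probe sets were tested two-sided on R 4.3.3 with the functions lmFit and eBayes of limma 3.58.1, and p-values were adjusted over all of them by Benjamini-Hochberg. Biorep was a covariate (0 for arrays whose titles name none). Same-Biorep arrays deviated together (18 of 18 pairs with a correlation over 0.1, median 0.467). Of same-numbered treatment replicates, 2 of 6 pairs were over 0.1, though 5 of 6 arrays correlated best with their own number. Arrays hold no counts, so their number limits the precision. Of the probe sets, 13436 matched 1 locus of the TAIR10.1 annotation, used for names only. Named genes are the 20 largest rises and falls past the threshold with the same sign in both Bioreps, the 4 largest differences each way, and up to 5 members a list with the lowest adjusted p. MCCB, AT4G33150, ASPGA1 and IAA29 were named after their values were seen. The members and lists were chosen with earlier results of these data known. Lists of gene families were drawn from the names that could be matched. Of other lists, only part was measured: 15 of 35 genes for amino acid breakdown, 4 of 29 for nitrate response, 8 of 26 for energy starvation and 12 of 37 for auxin. None was measured of the 16 genes listed for nitrogen assimilation, 17 for abscisic acid signalling and 12 for amino acid transport. Scripts were tested on simulated data. Alternatives changed the covariate, the block, the averaging of treatment replicates, the filter on low values, the normalization and the prior variance, and left out replicates.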

Additional observations from a re-analysis of the deposited data

Results flagged for a closer look

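Among the 40 named genes, each screened in both groups of 6 arrays (80 sets in all), 2 arrays stood apart from the other 5 by Dixon's criterion. Chance alone gives about 1 in 20 for 6 values from 1 normal sample. Each group here pools 2 Bioreps that are offset, so that rate does not hold and an array apart within its Biorep can be missed. AT1G53440 had a level of 6.93 in Biorep 1, treatment replicate 1 without DEX, against 6.16 to 6.39 on the other 5 arrays. AT2G27830 had 6.90 in Biorep 1, treatment replicate 1 with DEX, against 7.67 to 7.92.

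Named genes whose DEX effect differed between cells with and without CHX were also singled out, by the adjusted p of the difference (with CHX minus without, log2). Higher with CHX were AT5G65530 (2.46), AT1G22885 (1.94), AT4G02090 (1.90), UGT73C7 (1.81), AT3G54120 (1.77), PYRB (1.42), MAP1C (1.21), AT1G10090 (1.14), AT2G24130 (1.08) and NANA (1.07). Lower with CHX were GH3.3 (-2.09), DGL (-2.02), AT2G34670 (-1.97), EXLA3 (-1.51) and AT2G34930 (-1.10).

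The DEX effect differed between bZIP1 and empty vector cells, by the same criterion (bZIP1 minus empty vector, log2), for a longer set. Higher in bZIP1 cells were AT5G08350 (4.32), ASPGB1 (2.70, with values without DEX that may be background), AT1G54740 (2.64), PYRB (2.55), AT1G10090 (1.95), AT3G46700 (1.85), AT5G38710 (1.83), AT1G69570 (1.83), AT1G67480 (1.80), NANA (1.78), MAP1C (1.77), AT3G54120 (1.70), AT4G32950 (1.67), AT2G24130 (1.56), IAA34 (1.52), EXLA3 (1.15) and GH3.3 (0.40). Lower in bZIP1 cells were AT1G76640 (-3.31), AT2G47950 (-2.99), AT1G21550 (-2.67), AT2G47960 (-2.31), DGL (-1.66), AT5G22530 (-1.30), AT2G27830 (-1.29), CYP71B5 (-1.07), AT5G46710 (-1.01) and AT5G28630 (-0.80).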

How the results depend on the processing

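The counts of calls were not stable. For the 40 named genes no alternative turned a sign, and effects stayed within 0.605 to 1.395 times the reported ones. Signs could not turn in several of these: the genes were chosen for the same sign in both Bioreps, and some alternatives leave the estimate unchanged. Against 472 calls (301 and 171) for the DEX effect with nitrogen and CHX, there were 167 without the Biorep covariate (130 higher, 37 lower), 0 with treatment replicates averaged, 681 with all 24 arrays of bZIP1 cells with CHX (389 and 292), 726 among probe sets with a mean over 4 (399 and 327), 57 in Biorep 1 alone and 5 in Biorep 2 alone. With a replicate number left out in all groups or an array left out, counts ran from 68 to 444, the lowest without replicate 2. With treatment replicate within Biorep as a block in place of Biorep there were 342 calls, and 268 of these were among the 472. Whether the replicate numbers pair the arrays is not settled. Pair correlations ran from 0.031 to 0.178, 2 of 6 were over 0.1, and 5 of 6 arrays correlated best with their own number. Fewer arrays leave fewer degrees of freedom, and the cause of the other shifts was not tested.

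For the difference by CHX (198 calls, 118 higher and 80 lower) there were 74 without the covariate, 313 with replicates averaged (120 and 193), and 53 to 117 with a replicate left out (22 and 31 without replicate 3, 30 and 30 without replicate 2). For the difference by vector (242 calls, 156 and 86) there were 79 without the covariate, 151 with the replicate block, 379 with a mean over 4, and 51 to 85 with a replicate left out (41 and 44 without replicate 3). The difference by nitrogen had 0 calls under all alternatives run. That between Bioreps had 15 to 21 calls with a replicate left out, against 0. Leaving out a replicate gave 135 to 227 calls for DEX without nitrogen (568), 0 to 10 without CHX (36) and 7 to 11 in empty vector cells (8). Leaving out single arrays, and replicates in the last 3 results, was chosen after seeing the data. Levels near the floor limit what falls can be measured.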
